A study of Mus musculus with 4 samples.

Results

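Mecom, Zbtb20, Rora and Tshz2 are 4 transcription factor genes whose RNA carried many sites of PTBP1, polypyrimidine tract binding protein 1, in mouse heart. They were chosen as the transcription factor genes among those with most enriched PTBP1 clusters in both replicates, 4 of 13690 genes with a cluster in both. Studied in them were all clusters whose midpoint lay in the gene span on the gene's strand, 1961 of 376266 clusters in replicate 1 and 2072 of 388894 in replicate 2. The genes were chosen by their deposited log2 folds and −log10 p-values, through the counts of enriched clusters in both replicates, so these values are given as a description, with no test. Ebf1, a transcription factor gene with more reproducible clusters than any of the 4, is not one of them.

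The data are enhanced crosslinking and immunoprecipitation (eCLIP), in which ultraviolet light joins RNA to protein in the tissue, RNase trims the RNA and an antibody recovers the protein with the RNA it held. Frozen whole heart of C57BL/6 wild-type mice gave 2 PTBP1 immunoprecipitates and 2 inputs of the same gel size range, each input drawn from the lysate that its immunoprecipitate used. All 4 libraries share this genotype and tissue, no treatment is named, and the labels state neither age nor the number of mice. Whole heart mixes cardiomyocytes, fibroblasts and vessel cells, so the cells that made each RNA were not separated, and nothing says that the 2 lysates came from different mice.

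PTBP1 binds pyrimidine-rich RNA through its RNA recognition motifs and is best known for repressing exons, often from intronic sites around them. It also acts on RNA stability, polyadenylation and translation. Mecom (Entrez gene 14013) encodes zinc finger transcription factors from more than 1 promoter: the long MDS1-EVI1 form carries a PR domain, and the shorter EVI1 form, from an internal start, lacks it. Both are known from blood stem cells and leukaemia. Zbtb20 (56490) encodes a BTB and zinc finger repressor known from liver and brain. Rora (19883) encodes the nuclear receptor ROR alpha, which activates the clock gene Arntl and is mutated in the staggerer mouse. Tshz2 (228911) encodes a teashirt family protein with zinc fingers and a homeobox.

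The spans of the genes in GRCm38 (mm10) were chr3:29951296-30509759 on the − strand for Mecom, chr16:42875689-43634392 on the + strand for Zbtb20, chr9:68653404-69388246 on the + strand for Rora and chr2:169632509-170072751 on the + strand for Tshz2. They ran over 558 kb, 759 kb, 735 kb and 440 kb. Exons and introns were not separated here, so a position below is a place in the span and not an exon or intron. No RefSeq microRNA of the table used lay in any of the 4 spans.

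RefSeq's table of start windows held 2 starts for Mecom and 1 for each of the other genes. The 2 of Mecom and that of Zbtb20 are shown because they divide the spans in which clusters were placed below. The Mecom windows lay at the 5′ end of the span (chr3:30509710-30510009) and at an internal start 497 kb into it (chr3:30013155-30013454), both on the − strand. That of Zbtb20 was internal, 372 kb into the span (chr16:43247034-43247333, + strand). Sequences are from RefSeq, GRCm38.p6, 5′ to 3′, with the 50 bases after each start, transcribed from that start, in capitals.
Mecom, 5′ start: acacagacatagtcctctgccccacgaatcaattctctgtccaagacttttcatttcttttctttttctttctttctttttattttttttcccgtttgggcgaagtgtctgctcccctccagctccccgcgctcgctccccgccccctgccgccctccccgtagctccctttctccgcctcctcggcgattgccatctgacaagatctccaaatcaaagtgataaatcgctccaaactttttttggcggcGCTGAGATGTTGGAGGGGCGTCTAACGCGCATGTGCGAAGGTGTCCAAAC
Mecom, internal start: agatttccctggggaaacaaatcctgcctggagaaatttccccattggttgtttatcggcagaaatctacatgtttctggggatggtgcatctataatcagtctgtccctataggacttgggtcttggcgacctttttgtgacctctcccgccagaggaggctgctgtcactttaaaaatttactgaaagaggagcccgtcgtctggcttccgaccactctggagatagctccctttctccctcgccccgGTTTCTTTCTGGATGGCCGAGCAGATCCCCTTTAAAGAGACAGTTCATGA
Zbtb20, internal start: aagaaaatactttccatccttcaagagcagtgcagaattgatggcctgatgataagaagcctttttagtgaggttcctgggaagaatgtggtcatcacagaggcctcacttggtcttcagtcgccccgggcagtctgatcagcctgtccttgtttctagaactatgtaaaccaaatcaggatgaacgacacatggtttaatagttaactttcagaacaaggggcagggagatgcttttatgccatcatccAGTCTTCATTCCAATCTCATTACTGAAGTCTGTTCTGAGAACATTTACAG
The motif TCTT, a short pyrimidine word that PTBP1 is known to bind, occurred 5 times in the sense strand of the first window and 2 times in each of the others. The antisense strands held it 2, 2 and 4 times. The 50 bases after the start held none in the first window and held it 1 time in each of the other windows. Of 32851 RefSeq start windows, 89.1% held TCTT on either strand, and 18.6% held it in the 50 bases after the start. CTCTCT occurred in none of the 3 windows on either strand, against 27.6% of all windows. Neither motif shows a bound site here, since the windows were almost free of clusters: 1 replicate 1 cluster, chr3:30013449-30013600, reached 6 nt into the internal Mecom window with a log2 fold of 1.21, and no other cluster of either replicate met a start window of the 4 genes.

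Each cluster carries the log2 fold of an immunoprecipitate over its input and a −log10 p, both the authors' own values from the authors' deposited tables. A cluster is called enriched where both are at least 3, and reproducible where it also shares 1 nt or more, on its own strand, with an enriched cluster of the other replicate. In replicate 1, 97 of 446 Mecom clusters were enriched (21.7%), 115 of 619 in Zbtb20 (18.6%), 91 of 623 in Rora (14.6%) and 72 of 273 in Tshz2 (26.4%), where 6.31% of all clusters were. In replicate 2 it was 83 of 494 in Mecom (16.8%), 79 of 637 in Zbtb20 (12.4%), 70 of 668 in Rora (10.5%) and 80 of 273 in Tshz2 (29.3%), where 4.71% of all clusters were. Tshz2 thus had the fewest clusters and the highest enriched share of the 4 in both replicates, and Rora the lowest share. The rule used these counts, so nothing is read from their distance to the background.

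Reproducible clusters of replicate 1 numbered 67 in Mecom, 62 in Zbtb20, 61 in Rora and 56 in Tshz2. Those of replicate 2 numbered 70, 58, 49 and 56, so Rora came last there. The shares and ranks that follow count replicate 1. At least 1 reproducible cluster was found in 24.9% of genes and at least 50 in 0.0657%, which is 9 genes. The 4 ranked from the third to the sixth, below the glypican gene Gpc6 (83) and Ebf1 (82), which encodes a B cell and fat cell transcription factor. Tshz2 with 56 was the last inside the choice. Itpkb with 55 and Wwox with 54, which encode no transcription factor, followed. Among the transcription factors listed, Ebf1 stood above the 4 genes and Sox5, with 46, was the first below them.

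**Figure D1:**
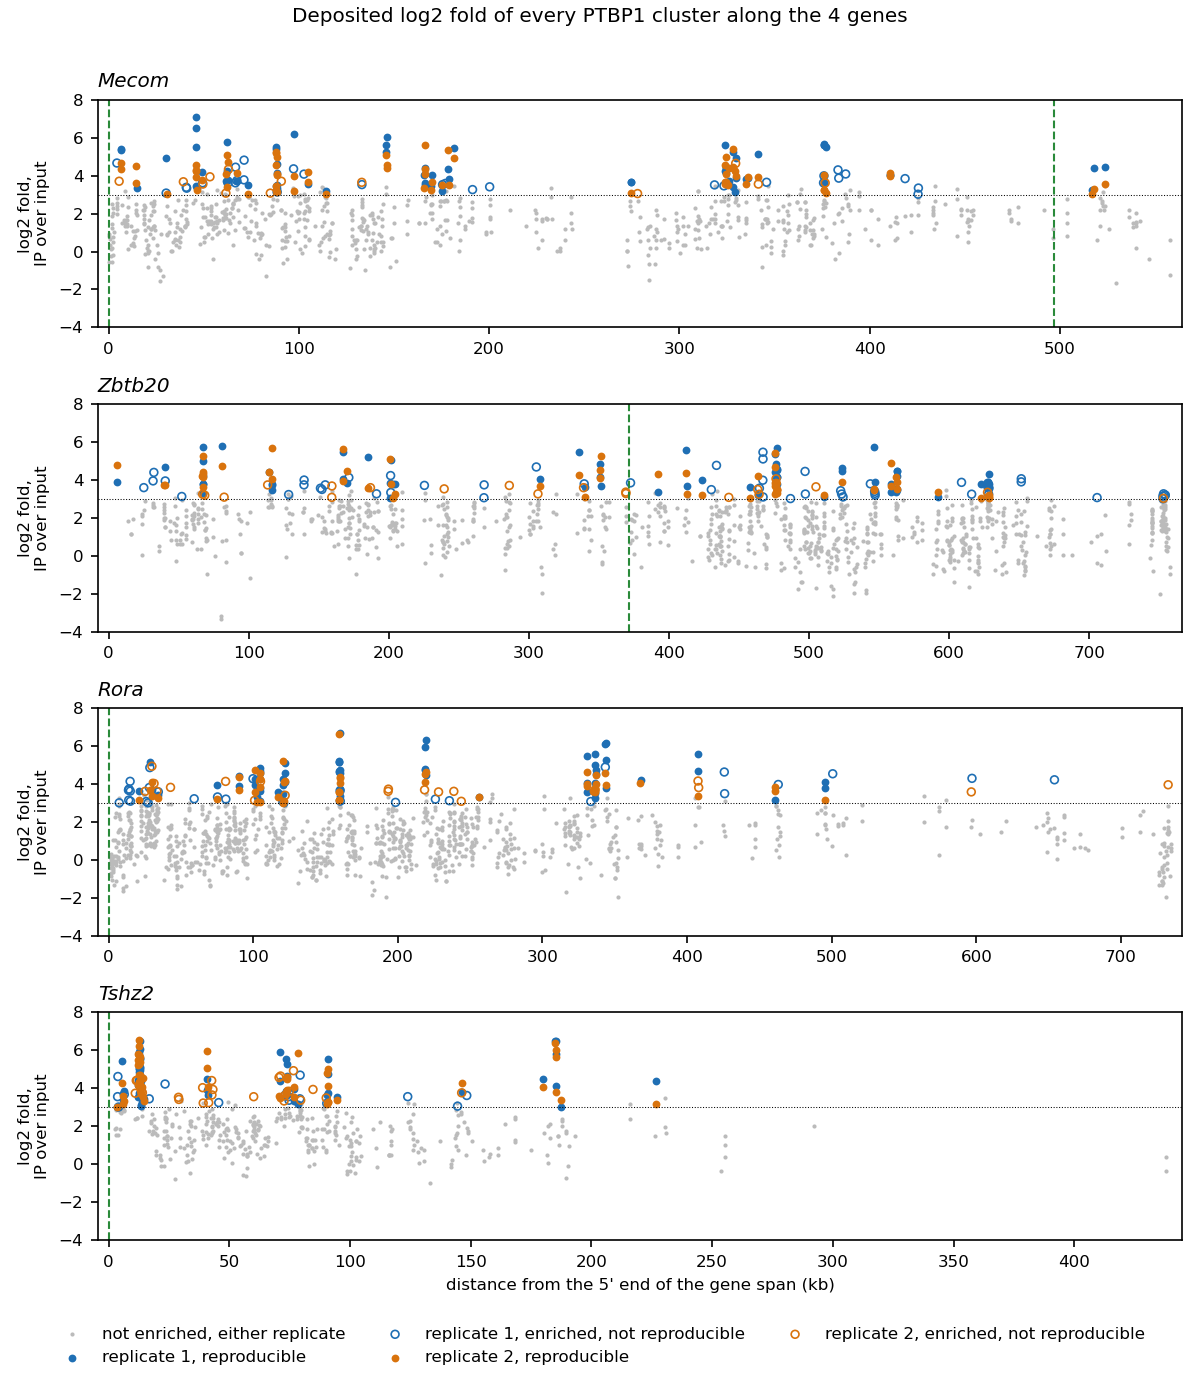
Each point is a cluster, at its distance from the 5′ end of the gene span (kb, x axis) and its deposited log2 fold of immunoprecipitate over input (y axis). Grey points are not enriched, filled points are reproducible, open points are enriched without an enriched partner, and colour gives the replicate; dashed green lines mark RefSeq starts and the dotted line a log2 fold of 3. Columns of filled points stand at 13 kb in Tshz2 and 160 kb in Rora, and Tshz2 is almost empty beyond 227 kb.

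Most clusters of these genes lay above input, not only the enriched ones. The median log2 fold over all clusters was 1.94 and 1.84 in Mecom (replicates 1 and 2), 1.93 and 1.68 in Zbtb20, 1.43 and 1.16 in Rora and 2.04 and 2.12 in Tshz2. Over all clusters of the series it was 0.62 in both replicates. Clusters below input numbered 21 and 25 in Mecom, 12 and 8 in Tshz2, 56 and 70 in Zbtb20, and 100 and 114 in Rora. Folds above 0 made up 95.3% and 94.9% of clusters in Mecom and 83.9% and 82.9% in Rora, against 72.9% and 71.5% over all clusters. These medians and shares include the enriched clusters by which the genes were chosen, so nothing is read from their distance to the series. Among enriched clusters alone, the medians were close to each other, with the lowest in Zbtb20 (3.79 and 3.63) and the highest in Tshz2 (4.14 and 4.05). The series had 3.94 and 3.79.

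The fold and the −log10 p did not always pass together. A log2 fold of at least 3 without a −log10 p of 3 was found for 18 and 20 clusters of Mecom, 17 and 12 of Zbtb20, 10 in each replicate of Rora and 7 and 8 of Tshz2. The opposite, a −log10 p of at least 3 with a lower fold, was found for 84 and 111 clusters of Zbtb20, 65 and 85 of Rora, 25 and 23 of Tshz2 and 15 and 34 of Mecom. Zbtb20 and Rora therefore held more clusters that failed on the fold alone than Mecom and Tshz2 did. At a log2 fold of 2, the reproducible clusters were 135 in Zbtb20, 122 in Rora, 95 in Mecom and 77 in Tshz2, so that Zbtb20 and not Mecom led. At a log2 fold of 4 they were 13, 26, 24 and 30 in the same order of genes, and Tshz2 led.

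Mecom held its enriched clusters in many short regions. A region here is joined from enriched clusters alone, so a high enriched share within it follows largely from the joining. Joining touching enriched clusters of both replicates gave 79 regions in Mecom, 97 in Zbtb20, 64 in Rora and 53 in Tshz2. Of these, 47, 40, 24 and 18 held clusters of both replicates, with median lengths of 203, 201, 272 and 314 nt. Mecom and Zbtb20 thus had more shared regions, each shorter, and Rora and Tshz2 fewer and longer ones. In Mecom 25 of the 47 shared regions were made of 2 clusters, in Zbtb20 23 of 40, in Rora 7 of 24 and in Tshz2 8 of 18. The nucleotides enriched in both replicates were 7239 in Mecom, 61.6% of those of replicate 1 and 71.4% of those of replicate 2. They were 6334 in Zbtb20 (48.3% and 69.7%), 5554 in Rora (59.7% and 69.3%) and 5612 in Tshz2 (71.4% and 62.7%).

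In Mecom the highest log2 fold of replicate 1 was 7.12, with −log10 p of 51.5, in the cluster chr3:30463647-30463720, 46.1 kb from the 5′ end. The best overlapping replicate 2 cluster had 4.57 and 30.2. These clusters belong to the longest joined region of the gene, chr3:30463322-30464018 (697 nt), with 5 enriched clusters in each replicate, whose folds lay between 3.36 and 7.12 (replicate 1) and between 3.23 and 4.57 (replicate 2). At the highest replicate 2 cluster of the gene, chr3:30343238-30343434, the order was the opposite, with 5.64 in replicate 2 and 3.52 in replicate 1. Each replicate was thus the higher at the place picked as its own maximum. By the lower of the 2 folds, the leading pair of Mecom was instead chr3:30421522-30421682 with 5.42 in replicate 1 and chr3:30421530-30421595 with 5.25 in replicate 2, with 66 nt in common. The next was chr3:30181376-30181449 with 5.25 and chr3:30181348-30181451 with 5.38, 328 kb into the span. The third and the fourth were neighbouring replicate 1 clusters at chr3:30363663-30363748 (5.62) and chr3:30363749-30363883 (5.26), which met the same replicate 2 cluster, chr3:30363732-30363884 (5.07). The fifth, chr3:30327965-30328158, had 5.45 against 4.95. The lower folds of these 5 ran from 4.95 to 5.25, narrower than the lysate-to-lysate spread given below, so their order is not resolved.

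Other Mecom regions were shorter. At chr3:30133827-30134069 (243 nt), 376 kb into the span, 5 of 5 replicate 1 clusters were enriched with a median log2 fold of 5.60, against 2 of 4 replicate 2 clusters with 3.63. At chr3:30363561-30363884 all 3 clusters of each replicate were enriched, with medians of 5.62 and 4.58. Replicate 1 was the higher in both.

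The internal start of Mecom divided its clusters very unequally. Of the enriched clusters, 94 of 97 in replicate 1 and 80 of 83 in replicate 2 lay before the internal start, in sequence that only RNA from the upstream start can hold by RefSeq's starts. The 3 beyond it in each replicate were all reproducible. Clusters of any fold divided likewise, with 425 of 446 and 479 of 494 before the internal start. The enriched share was 22.1% before it and 14.3% after it in replicate 1, and 16.7% and 20% in replicate 2, so the replicates gave no common direction for the 21 and 15 clusters after it. The nearest enriched cluster before the internal start was 71.0 kb away in replicate 1 and 85.8 kb in replicate 2, and the nearest after it about 20 kb away in both. The lncRNA genes Gm52621 and Mecomos overlap the Mecom span, and no Mecom cluster lay in either.

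Zbtb20 had sites on both sides of its internal start. In replicate 1, 48 of the 250 clusters before that start were enriched (19.2%) and 67 of the 369 after it (18.2%). In replicate 2 it was 40 of 233 (17.2%) and 39 of 404 (9.65%). The share after the start was lower in both replicates, only slightly in replicate 1 and more so in replicate 2. The reproducible clusters of replicate 1 were 28 before and 34 after it.

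The leading Zbtb20 pair was chr16:43042995-43043154 with a log2 fold of 5.46 and chr16:43042993-43043170 with 5.63, which shared 160 nt, 167 kb into the span. Next came chr16:43351408-43351604 with 5.36 and chr16:43351544-43351604 with 5.41, beyond the internal start. It lay in the span of Gm9968, a lncRNA gene of the opposite strand, where 11 and 12 Zbtb20 clusters were enriched and 10 in each replicate were reproducible. The third pair, chr16:42943017-42943096 and chr16:42943017-42943092, had 5.72 and 5.25. Its region, chr16:42942891-42943307 (417 nt), was the longest of the gene and held 5 enriched clusters in each replicate, from 3.77 to 5.72 and from 3.24 to 5.25. The fourth pair, at chr16:42956758-42956917, had 5.78 and 4.75, and the fifth, at chr16:43226580-43226749, 4.85 and 4.51. The highest −log10 p of Zbtb20 was 400, the value at which the deposited column stops, in the replicate 1 cluster chr16:43399568-43399673 with a fold of 4.46. The replicate 2 cluster there, chr16:43399480-43399681, also had the highest value of its table in this gene, 69.4, with a fold of 3.88. The cluster with the highest −log10 p was thus not that with the highest fold.

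The lowest folds of Zbtb20 stood close to its pair at chr16:42956758-42956917, which lies just downstream. In replicate 1 the cluster chr16:42955829-42955874 had a log2 fold of −3.32 and in replicate 2 the cluster chr16:42955789-42955850 had −3.19. Both lay in Ndufs5-ps, a transcribed pseudogene (chr16:42955580-42956079) named after Ndufs5, the gene of a respiratory complex I subunit. Reads of a pseudogene and of its parent gene may not be told apart, so these values may not be those of Zbtb20 RNA. The next lowest folds in Zbtb20 were −1.96 and −2.11.

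Rora held its reproducible clusters in fewer and longer regions than Mecom and Zbtb20. Most Rora clusters of any fold lay in the 5′ part. The first 50% of the span held 86.8% and 87.1% of enriched clusters (replicates 1 and 2), against 86.7% and 87.6% of the others. The longest region was chr9:68812713-68813668 (956 nt), 160 kb from the 5′ end, with 12 enriched clusters in replicate 1 and 8 in replicate 2. Their folds reached from 3.10 up to 6.72 and, in the other replicate, from 3.14 up to 6.66. Clusters of any fold in that region, which was joined from enriched ones, numbered 12 in replicate 1 and 10 in replicate 2. The highest cluster of each replicate lay in it: chr9:68813058-68813211 with 6.72 in replicate 1, and chr9:68812763-68812915 with 6.66 in replicate 2. They did not overlap. The leading pair joined the latter with chr9:68812715-68812870, which had 5.23, and the second and the fifth pairs joined the same replicate 2 cluster with chr9:68812871-68812912 (5.18) and chr9:68812913-68812987 (4.65). The fifth shared 3 nt, so its folds are of neighbouring clusters. The third and the fourth pairs met at chr9:68872525-68872667, with 4.66 in replicate 2, and had 5.95 and 6.33 in replicate 1. That place also had the highest −log10 p of the gene, 86.8 in replicate 1 and 56.0 in replicate 2.

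A second region of Rora, chr9:68758027-68758553, held 6 enriched clusters in each replicate with medians of 4.20 in both. A further one, chr9:68774096-68774626, held 5 and 4, with medians of 3.48 and 3.63. The medians of the longest region, 4.67 and 3.84, were further apart. Some Rora clusters may belong to other RNAs, since lncRNA genes lie within the span: 9530091C08Rik, on the same strand, held 1 enriched cluster per replicate. Gm31262 (chr9:68823368-68923966), whose strand is not listed in the table used, held 146 and 161 clusters, of which 9 and 10 were enriched, including those at chr9:68872525-68872667. Without that span, a choice made after seeing the data, Rora kept 55 of its 61 reproducible clusters.

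Tshz2 carried the densest block of sites of the 4 genes. The region chr2:169644610-169646078 (1469 nt), 12.8 kb from the 5′ end, was tiled by 23 enriched clusters in replicate 1 and 18 in replicate 2. It held no other cluster, which follows largely from joining enriched clusters alone. The log2 folds of its clusters lay between 3.08 and 6.51 with a median of 4.97 in replicate 1. In replicate 2 they lay between 3.73 and 6.55 with a median of 5.25. The −log10 p reached 73.0 and 57.5. In a window of 10 kb around that block lay 30 of the 72 enriched clusters of replicate 1 (41.7%) and 31 of the 80 of replicate 2 (38.8%). The densest window of the same width held 14.4% and 16.9% in Mecom, 9.57% and 13.9% in Zbtb20 and 12.1% and 14.3% in Rora. The count of Tshz2 thus rested on 1 place far more than those of the other genes did. Counted as joined regions, Tshz2 came last of the 4. Its next longest region, chr2:169705845-169706493 (649 nt), held 5 and 6 enriched clusters, with medians of 4.64 and 4.21.

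The leading Tshz2 pair lay elsewhere, at chr2:169817500-169817671 with a log2 fold of 6.51 and chr2:169817503-169817680 with 6.40, which shared 169 nt, 185 kb into the span. The neighbouring replicate 1 cluster, chr2:169817672-169817831, had the same fold of 6.51 and the same −log10 p of 33.1, and met the same replicate 2 cluster in 9 nt. Such repeats are frequent: the 446 replicate 1 clusters of Mecom took 188 different fold values and the 273 of Tshz2 took 162. The third and the fourth pairs were in the dense block, where chr2:169645494-169645574 (6.09) and chr2:169645575-169645594 (6.51) met chr2:169645523-169645731 (5.64). The fifth was chr2:169817832-169817943 with 5.79 against 5.64. The lower folds of the 5 Tshz2 pairs, 5.64 to 6.40, were above those of the leading pair of each other gene. These were 5.46 in Zbtb20, 5.25 in Mecom and 5.23 in Rora. From Zbtb20 all were less than the standard deviation of about 1 log2 unit between replicates away. From Mecom and Rora only those at 6.40 were slightly further.

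Tshz2 was nearly empty in its 3′ part. The last enriched cluster lay 227 kb from the 5′ end in both replicates, 51.5% into the span. Beyond 292 kb in replicate 1 and 255 kb in replicate 2 there was 1 cluster in each table, at 438 kb, and it was not enriched. Enriched clusters lay nearer the 5′ end than the other clusters of the gene: 54.2% of them were in the first 10% of the span in replicate 1 and 53.8% in replicate 2, against 31.8% and 23.8% of the others. Mecom and Rora went the other way, with 15.5% and 18.1% of enriched clusters in the first 10% against 22.3% and 20.4% in Mecom, and 18.7% and 14.3% against 27.1% and 24.4% in Rora. In Zbtb20 it was 11.3% and 13.9% against 8.53% and 7.71%. Clusters of 1 gene are not independent, so these shares are given with no test.

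**Figure D2:**
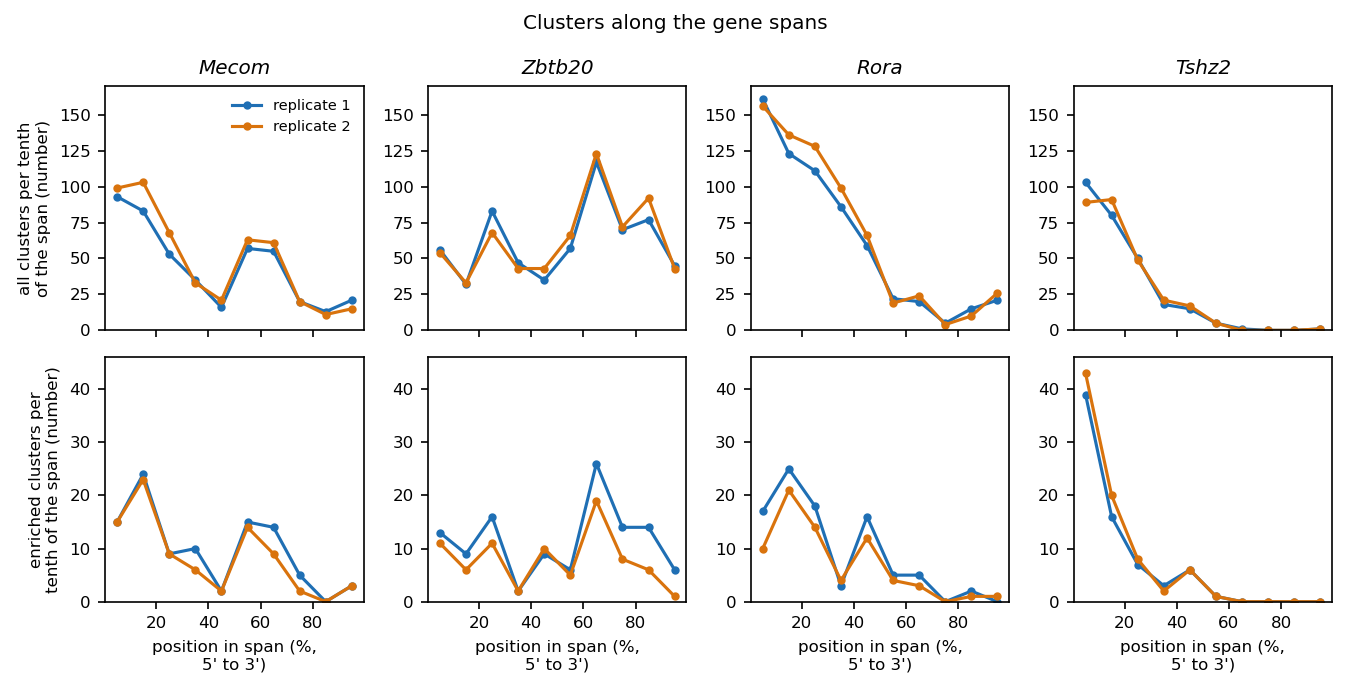
Number of all clusters (upper row) and of enriched clusters (lower row) in each 10% of the gene span, from 5′ to 3′ (x axis, percent of the span), for both replicates. Rora falls from 161 and 156 clusters in the first 10% to 5 and 4 between 70% and 80% of the span, Tshz2 from 103 and 89 to at most 1 beyond 60%, and Zbtb20 is highest between 60% and 70%.

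Few enriched clusters lay at the 3′ ends. The last 10% of the span held 3 enriched clusters of Mecom in each replicate, 6 and 1 of Zbtb20, 0 and 1 of Rora and 0 of Tshz2 in both. Clusters of any fold there numbered 21 and 15 in Mecom, 45 and 43 in Zbtb20, 21 and 26 in Rora and 1 in each replicate of Tshz2. The median position of enriched clusters in replicates 1 and 2 was 30.3% and 26.2% of the span in Mecom, 61.2% and 48.7% in Zbtb20, 21.7% in both in Rora and 7.29% and 9.57% in Tshz2. For the other clusters it was 26.6% and 25%, 58.8% and 61.6%, 22.9% and 23.1%, and 14.8% and 17.5%. Tshz2 and Rora had enriched medians nearer the 5′ end than those of their other clusters in both replicates, by little in Rora. Mecom had them further from it, and in Zbtb20 the replicates differed in direction.

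Enriched clusters were longer than the others in each gene, as they were over all clusters. Length was no threshold, but the −log10 p used in the call may depend on it, which was not tested. In replicate 1 the median length was 117 nt against 69 nt in Mecom, 109 against 65 in Zbtb20, 101 against 69 in Rora and 109 against 63 in Tshz2. In replicate 2 it was 114 against 63, 107 against 69.5, 103 against 67 and 109.5 against 67. Over all clusters it was 130 against 67 in replicate 1 and 131 against 64 in replicate 2, so the enriched clusters of the 4 genes had shorter medians than those of the series. The median −log10 p of enriched clusters was 7.71 and 7.15 in Mecom, 9.56 and 9.43 in Zbtb20, 10.5 and 10.3 in Rora and 10.7 and 10.8 in Tshz2.

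Clusters were dense in all 4 genes. There were 79.9 and 88.5 clusters per 100 kb of span in Mecom, 81.6 and 84.0 in Zbtb20, 84.8 and 90.9 in Rora and 62.0 in both replicates of Tshz2. The median of 347 genes with spans of at least 400 kb was 16.4 and 17.7. In those genes, the 4 included, the median enriched share was 1.67% and 0.61%, and the median number of reproducible clusters was 1. Because the 4 were chosen by their enriched clusters, nothing is read from their distance to these medians. Clusters covered 6.72% of the Mecom span in replicate 1, 6.61% of Zbtb20, 6.89% of Rora and 4.99% of Tshz2. The level of each RNA in the heart was not measured by these tables, so density cannot be told apart from abundance, nor more cells of a type from more RNA per cell.

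The strands were clean. On the strand opposite to the gene lay 1 replicate 1 cluster in the Mecom span and 1 cluster per replicate in that of Zbtb20, none of them enriched, and 0 in the spans of Rora and Tshz2. The Mecom one, chr3:30019944-30020028, lay in Mecomos with a log2 fold of 0.04, and those of Zbtb20 had 1.74 and 1.36.

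Most enriched clusters met an enriched cluster of the other replicate in each gene, with the lowest share in Zbtb20 in replicate 1 and in Rora and Tshz2 in replicate 2. Of replicate 1 enriched clusters, 69.1% did so in Mecom, 53.9% in Zbtb20, 67.0% in Rora and 77.8% in Tshz2, against 63.0% of all enriched clusters. Of those of replicate 2, 84.3% did in Mecom, 73.4% in Zbtb20 and 70.0% in Rora and Tshz2, against 78.8% of all. Most of the rest met a cluster that was below a threshold. In Zbtb20, 53 replicate 1 clusters did, and the best overlapping fold of replicate 2 had a median of 2.44 and a range of 1.06 to 3.43. In Mecom there were 30 such clusters with a median of 2.73, in Rora 29 with 2.52 and in Tshz2 11 with 2.53. Enriched clusters with no overlapping cluster at all numbered 0 and 3 in Mecom, 0 and 3 in Zbtb20, 1 and 3 in Rora and 5 and 6 in Tshz2.

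**Figure D3:**
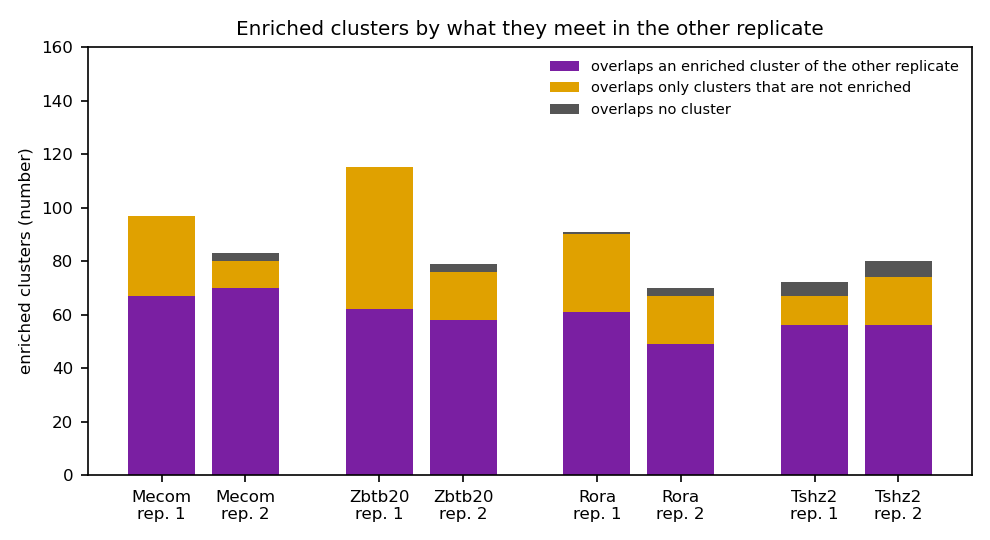
Bars give the number of enriched clusters of each gene and replicate (y axis), divided by what they overlap in the other replicate. The replicate 1 bar of Zbtb20 is the highest, at 115, and has the largest part, 53 clusters, that overlaps only clusters below a threshold.

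The folds of the lysates went together within each gene, with a spread of about 1 log2 unit. Pairing each replicate 1 cluster with the replicate 2 cluster that shared most nucleotides gave 328 pairs in Mecom, 470 in Zbtb20, 461 in Rora and 185 in Tshz2. The Pearson correlation across pairs was 0.68, 0.76, 0.77 and 0.77 in these genes and 0.79 over all 210643 pairs of the series. These are correlations across clusters of the same 2 lysates, which are no independent replicates. The difference of replicate 1 minus replicate 2 had a standard deviation of 1.11 in Mecom, 0.97 in Zbtb20, 1.04 in Rora and 1.08 in Tshz2. Its median was 0.13, 0.30 and 0.17 in the first 3 genes and −0.09 in Tshz2, against 0.13 over all pairs. Where both clusters had a −log10 p of 3 or more, the median was 0.36 in Mecom, 0.48 in Zbtb20, 0.31 in Rora and 0.01 in Tshz2.

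**Figure D4:**
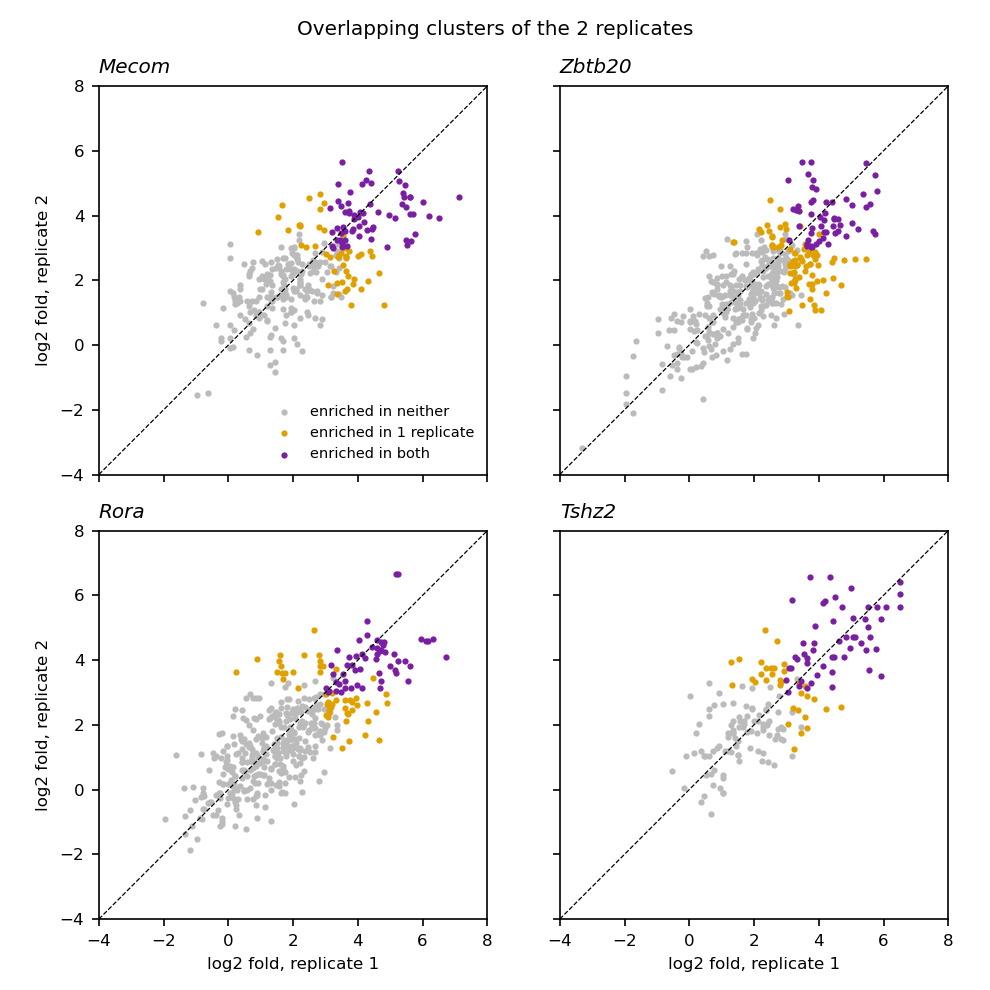
Each point is a pair of overlapping clusters, with the deposited log2 fold of replicate 1 on the x axis and of replicate 2 on the y axis; the dashed line marks equal folds. Points enriched in both replicates lie on both sides of the line, and in 21 of 65 such pairs of Mecom, 17 of 57 of Zbtb20, 17 of 56 of Rora and 14 of 54 of Tshz2 the folds were over 1 log2 unit apart.

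Tshz2 was the only one of the 4 with more enriched clusters in replicate 2 than in replicate 1. The ratio of replicate 2 to replicate 1 was 1.11 in Tshz2, 0.86 in Mecom, 0.77 in Rora and 0.69 in Zbtb20. For all enriched clusters it was 0.77. Of 190 genes with at least 20 enriched clusters in replicate 1, 12 had more in replicate 2 (6.32%), and 6 of these 190 genes, Tshz2 included, had a ratio as high as that of Tshz2 or higher. This is a comparison of 2 lysates and has no replicate of its own.

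Reproducible clusters were also counted in genes of the same families. Of 23 relatives listed, 9 had a reproducible cluster, against 24.9% of all genes with a cluster in both replicates. The median was 0 in both sets. The closest relative of Mecom, Prdm16, which encodes another PR domain protein, had 6 among 140 clusters. Tshz1 had 2 and Tshz3 had 0, with 57 and 59 clusters in replicate 1. Zbtb45, a BTB zinc finger gene like Zbtb20, had 1 and 2 clusters and none was enriched. Rorb, a nuclear receptor gene like Rora, had 2 in each replicate, also with none enriched. Zbtb16, the gene of the repressor PLZF, had the most of the relatives, with 39 reproducible clusters among 400 clusters in a span of 184 kb. Prdm16 and Tshz1 had 9 and 2 enriched clusters in replicate 1. Mecom, Zbtb20, Rora and Tshz2 were chosen by their enriched clusters and the relatives were not, so nothing is read from the distance between them. Relatives named here are also shorter: the spans were 76.1 kb in Tshz1 and 4.38 kb in Zbtb45.

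Of 82 other transcription factor genes listed, 58 had a reproducible cluster, with a median of 4, and the median enriched share was 6.32% and 5.00%. Over all genes the median was 0. The 6 with most, from both lists, were Ebf1 with 82, Sox5 with 46, Zbtb16 with 39, Tcf4 and Zfpm2 with 31 each and Sox6 with 28. Foxp1, a gene of 597 kb with 502 and 496 clusters, close to the span and numbers of Mecom, had 26. The enriched share of Foxp1 was 6.77% and 6.65%. Since the 4 genes were chosen by their enriched clusters, a similar gene with fewer of them is no test of span or cluster number. The enriched share of Tbx20, which encodes a cardiac T-box factor, was above that of all 4 genes, at 36.8% and 33.8%, in a span of 53.5 kb with 19 reproducible clusters. Foxp1 and Tbx20 were named after their values were seen.

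**Figure D5:**
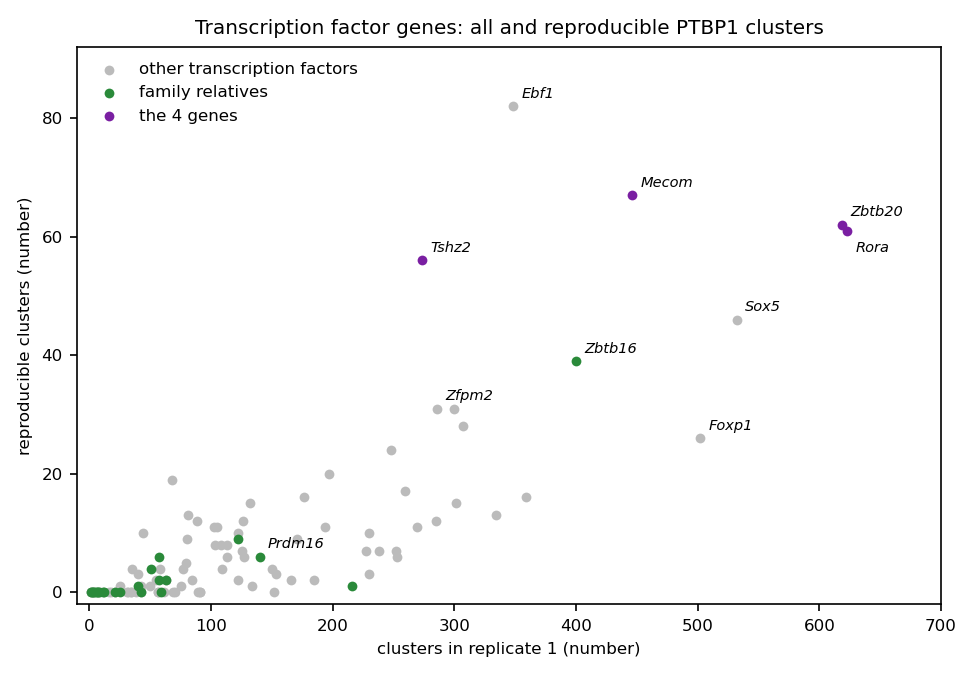
Number of clusters (x axis) and of reproducible clusters (y axis), both of replicate 1, for the 4 genes, 23 family relatives and 82 other transcription factor genes. The 4 genes stand at 56 to 67 reproducible clusters, with Ebf1 alone above them and Sox5, at 46, next below.

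Genes with the most similar enriched shares were sought among 736 others with at least 100 clusters in each replicate, by the distance over the 2 shares in percentage points. The median share there was 5.71% and 3.99%. Nearest to Mecom were Ehmt1 (21.0% and 18.8%), a histone methyltransferase gene, Maml2 (23.2% and 18.5%), a Notch coactivator gene, and Atxn1 (23.6% and 18.4%). Nearest to Zbtb20 were Ptk2, the focal adhesion kinase gene (18.4% and 12.3%), and the tetraspanin gene Tspan9 (17.9% and 12.0%). Rora was nearest to the acetyltransferase gene Crebbp (14.4% and 10.3%), the cohesin gene Stag2 (14.7% and 10.8%) and Tmtc2 (14.3% and 10.6%). Tshz2 had less close neighbours, at 2.87 to 4.21 percentage points: F13a1, the gene of a coagulation factor subunit (23.8% and 28.1%), the insulin receptor gene Insr (25.4% and 25.2%) and Ccdc85a (29.0% and 26.0%). Of the 736 genes, 4 had a share as high as Tshz2 in replicate 1 and 2 in replicate 2, while 61 and 75 had one as high as Rora. Genes with fewer than 100 clusters were not counted, among them Tbx20, whose share was higher. Tshz2 and Rora were chosen by their enriched clusters, so nothing is read from these counts.

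The tissue label was checked on marker genes. All 14 heart markers had clusters in both replicates, among them the cardiomyocyte genes Myh6, Tnnt2 and Ryr2 and the fibroblast gene Col1a1. Of 9 liver and brain markers, 2 had clusters in both replicates, 5 had 0 in either, and none had an enriched cluster. Over all genes with a known strand, 13690 of 29556 had a cluster in both replicates. The heart markers Tnnt2, Myl2, Tnni3 and Kcnj8 had no enriched cluster either. A reproducible cluster was found in 8 of the 14 heart markers, against 24.9% of genes with a cluster in both replicates. The check thus rests on clusters of any fold. Albumin (Alb) had 0 and 2 clusters.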

How the data were processed

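Per the submitters' processing notes, UMI-tools 0.5.1, cutadapt 2.7 and STAR 2.6.0c were used, with mm10 and hg38 as builds. Cluster caller, annotation and statistical test: not given in the sources used here. For both replicates the deposited clusters carry a log2 fold of immunoprecipitate over input and a −log10 p-value, per the file headers. Reads and totals were not used, and the depth of single clusters is therefore unknown. Deposited starts count from 0 and are printed counting from 1.

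With Python 3.11.15, pandas 2.3.3 and numpy 2.4.6, clusters were placed in RefSeq spans (GRCm38.p6) by midpoint and strand. Strand came from RefSeq's start windows for 27024 genes and, for the rest, from clusters in that gene alone (at least 3, 90% on 1 strand). A cluster in overlapping spans counts for each gene. Overlap and joining steps were tested on simulated intervals. The members, gene lists, thresholds and alternatives were chosen with earlier results of these data known. Named by rule were the 4 genes, the 5 shared clusters of each with the highest lower fold, the 3 most similar genes of each, the 6 listed genes with most reproducible clusters, and direct relatives; some genes that this rule takes are not reported here. Fold, p and overlap thresholds, joining gaps and leaving out a replicate were the alternatives. Cluster sequence and exons were not analysed here.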

Additional observations from a re-analysis of the deposited data

How the results depend on the processing

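The enriched share, as the mean of both replicates, was 19.3% in Mecom, 15.5% in Zbtb20, 12.5% in Rora and 27.8% in Tshz2. In that order of genes it was 24.4%, 31.0%, 24.1% and 36.6% at a log2 fold of 1, 24.1%, 27.3%, 22.6% and 36.3% at 2, and 8.89%, 5.19%, 5.56% and 14.5% at 4. At a −log10 p of 10 it was 7.21%, 7.43%, 6.69% and 15.2%, so Tshz2 led at each. Reproducible clusters at a log2 fold of 1 were 162 in Zbtb20 and 135 in Rora, at 2 they were 135 and 122, and at 4 they were 24 in Mecom, 13 in Zbtb20, 26 in Rora and 30 in Tshz2. At a −log10 p of 10 they were 28 in Mecom, 34 in Zbtb20, 40 in Rora and 38 in Tshz2, so that Rora led and Mecom came last. At a log2 fold of 2, Rora had 104 joined regions, and its median position was 16.5% of the span, that of Tshz2 9.28%. Joining across gaps of up to 200 nt left 35 regions in Tshz2. With 1 replicate left out, no overlap can be asked, and the count is that of enriched clusters: 79 to 115 in Zbtb20, 83 to 97 in Mecom, 70 to 91 in Rora and 72 to 80 in Tshz2. Without replicate 1 the median position was 26.2% in Mecom, 48.7% in Zbtb20, 21.7% in Rora and 9.57% in Tshz2. The median replicate difference rose from 0.13 to 0.36 in Mecom, from 0.30 to 0.48 in Zbtb20 and from 0.17 to 0.31 in Rora where both clusters of a pair reached a −log10 p of 3, and changed sign in Tshz2, from −0.09 to 0.01. For pairs sharing at least 50% of both clusters it was 0.12, 0.31, 0.22 and 0.0028. The causes were not tested. No paired analysis was possible because these results come from no test; each fold already sets an immunoprecipitate against the input of its own lysate. Precision is limited by the unknown depth of single clusters.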
